A study of Mus musculus with 4 samples.

Results

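Translation initiation and elongation factors are the genes whose symbol starts with Eif or Eef, the eIF2 kinases (Eif2ak) and the 4E-binding repressors (Eif4ebp) included. Symbols were found through the RefSeq accession of each array probe. The rule gave 66 genes, read by 118 probes, of the 19338 genes tested on these arrays. All 66 had a signal well above background on all 4 arrays, so no member was lost to the filter on dim probes. RefSeq lists 87 genes with these prefixes, and the other 21, of which 6 are protein-coding, had no probe named here.

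The arrays compared 2 samples of FBL-knock down cells with 2 controls. FBL, fibrillarin, is the nucleolar enzyme that adds methyl groups to the ribose of ribosomal RNA. All 4 samples were mouse embryonic stem cells that carry the same tetracycline (Tc)-inducible FBL-knock down system, grown on gelatin with leukaemia inhibitory factor (LIF) for 2 days. The FBL-knock down samples had no Tc, and the controls had Tc at 1000 ng/mL, so that Tc itself and FBL differ together and cannot be told apart. The labels do not say whether the line is a single clone or whether samples of a group were separate cultures, and p-values reflect no more than how far these samples differ from each other, possibly for technical reasons. The comparison asks which transcripts differ after FBL has been lowered while LIF is kept.

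Translation starts when eIF2, loaded with GTP and the initiator tRNA, joins the small ribosomal subunit together with eIF1, eIF1A, eIF3 and eIF5. The eIF4 factors bind the capped end of the mRNA and unwind it, and eIF5B joins the large subunit. eIF2B reloads eIF2 with GTP, and 4 kinases that phosphorylate eIF2 block that step, while 4E-binding proteins hold back the cap-binding protein eIF4E when mTORC1 is inactive. The eEF factors then bring aminoacyl-tRNA to the ribosome and move it along the mRNA. Embryonic stem cells are known for a low rate of protein synthesis compared with their differentiated progeny.

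Values are log2 levels, with the 75th percentile of each array set to 0. Levels of different probes are not on a common scale, so only the same probe is compared between samples. Fbl itself had levels of 5.98 and 5.94 in the FBL-knock down samples, against 8.63 and 8.12 in the controls, and fell 5.33-fold (log2 change -2.42 ± 0.25 SE, limma adjusted p = 4.18e-04). Between 24497 and 26404 of 41174 probes per array were well above background. All 10 stem cell markers were well above background on every array and none passed the test. Nanog had the lowest adjusted p among them (change -0.83, limma adjusted p = 0.0603). Of 6 fibroblast markers Col1a1, Col1a2 and Thy1 were well above background on all 4 arrays and Col3a1, Dcn and Postn on none. Of 4 trophectoderm markers Krt7 rose and Elf5 fell, and of 5 endoderm markers Sox7 fell. None of 3 neural markers passed, and none of the 2 mesoderm markers that were tested. Pax6 had the lowest adjusted p of the neural markers (change -0.83, limma adjusted p = 0.0569). Elf5 was well above background on 3 arrays only. On FBL-knock down 2 its level was -7.21, where the lowest level well above background was -5.51. The part of these markers in the values below was not tested. Over all genes, 752 rose and 506 fell, or 6.51% in either direction. Controls 1 and 2 and FBL-knock down 1 lay on the same slide, and FBL-knock down 2 on another. In bulk RNA, fewer cells of a type and less RNA per cell cannot be told apart, and scaling each array to its own percentile hides any change in total RNA.

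None of the 66 translation factor genes passed limma at an adjusted p of 0.05, against 6.51% of all genes. The lowest adjusted p was 0.189. At an unadjusted p under 0.05 there were 3 members, Eif4a2, Eif4b and Eif1ax, where 20.0% of all genes had such a p. The members' log2 changes ran from -0.62 for Eif4a2 to 0.53 for Eif4ebp2, and the smallest change of any called gene was 0.86 in size. Their median was -0.10, beside -0.06 over all genes, and their median size was 0.20, beside 0.26 over all genes. The standard errors ran from 0.22 to 0.29, and the 95% intervals of 55 members lay within a 2-fold change in either direction (between -1 and 1 on the log2 scale). The other 11 intervals reached further, to -1.18 at the lowest and 1.14 at the highest, and changes inside a gene's interval are not excluded for it.

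**Figure D1:**
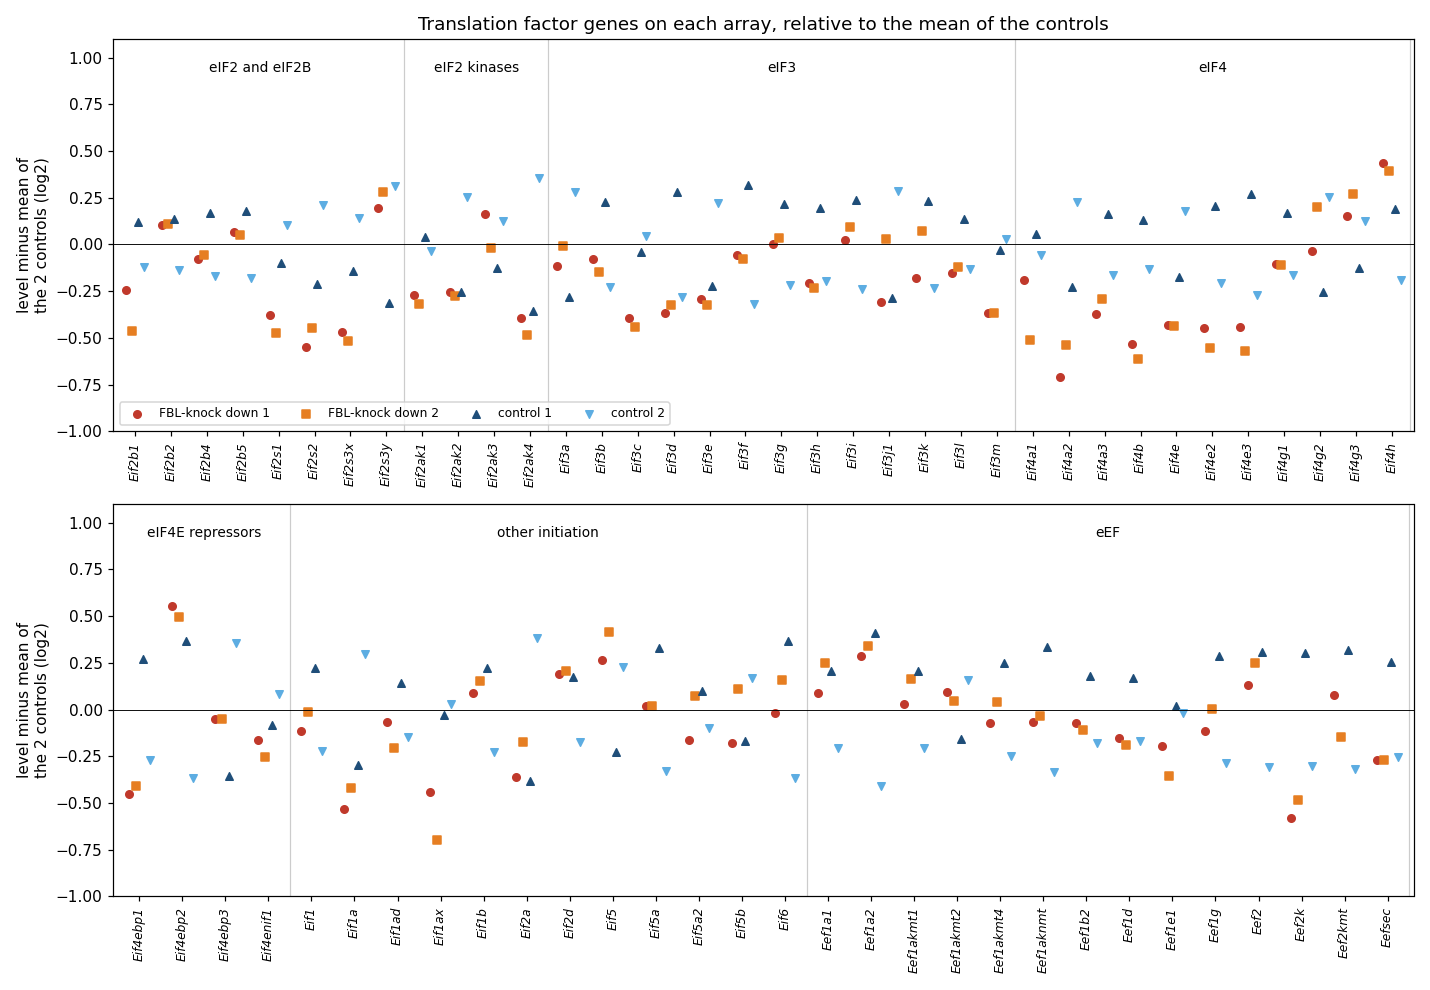
Level of each of the 66 translation factor genes on each array, as the log2 difference from the mean of the 2 controls, grouped by factor. Circles and squares are the 2 FBL-knock down arrays and triangles the 2 controls, which for most genes lie further apart than the FBL-knock down arrays do.

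Both FBL-knock down values lay below both controls for 25 of the 66 members (37.9%), where 30.6% of all genes did so, and above both for 5 members (7.58%), where 20.6% of all genes did so. The 30 members with separate groups compare with 51.1% of all genes. Below 0 were the changes of 46 members, and 56.1% of all genes had a change below 0. That count was 39 with quantile normalization and 39 with the 75th percentile over bright probes, so the direction of the weakest changes rests on the scaling. The plot of values by array shows this pattern gene by gene.

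The eIF2 subunit genes are shown first, with their promoters, because both FBL-knock down values lay below both controls in the 3 that are not on the Y chromosome. The sequences are the 250 bases before the most upstream start that the RefSeq promoter table lists, which matched 54 of the 66 members. Eif4h and Eif4ebp2 are added as the members with the highest change among the eIF4 factors and the eIF4E repressors. Capitals mark matches on either strand to 4 motifs, which are CACGTG (the E-box that MYC and other factors bind), CCGGAAG (bound by ETS factors), GCATGCGC (bound by NRF1, which is known from the human eIF2 alpha promoter) and TGATGNAA (the amino acid response element).
Eif2s1 (GRCm38.p6, chr12:78861822-78862071, plus strand): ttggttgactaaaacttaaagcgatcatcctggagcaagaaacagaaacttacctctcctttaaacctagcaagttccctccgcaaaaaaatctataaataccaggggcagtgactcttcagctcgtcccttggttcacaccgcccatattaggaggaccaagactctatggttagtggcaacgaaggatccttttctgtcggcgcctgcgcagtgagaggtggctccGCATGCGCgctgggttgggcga
Eif2s2 (GRCm38.p6, chr2:154892907-154893156, minus strand): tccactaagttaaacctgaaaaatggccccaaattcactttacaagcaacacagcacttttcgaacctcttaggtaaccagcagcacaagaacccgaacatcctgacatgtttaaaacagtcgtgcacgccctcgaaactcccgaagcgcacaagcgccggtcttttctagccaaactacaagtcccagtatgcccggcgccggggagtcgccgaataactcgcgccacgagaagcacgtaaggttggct
Eif2s3x (GRCm38.p6, chrX:94212652-94212901, minus strand): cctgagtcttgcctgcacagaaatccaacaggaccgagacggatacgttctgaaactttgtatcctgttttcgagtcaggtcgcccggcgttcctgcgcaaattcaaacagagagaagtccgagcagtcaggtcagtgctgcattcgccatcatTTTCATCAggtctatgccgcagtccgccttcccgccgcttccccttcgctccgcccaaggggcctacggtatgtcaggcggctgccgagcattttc
Eif2s3y (GRCm38.p6, chrY:1010345-1010594, plus strand): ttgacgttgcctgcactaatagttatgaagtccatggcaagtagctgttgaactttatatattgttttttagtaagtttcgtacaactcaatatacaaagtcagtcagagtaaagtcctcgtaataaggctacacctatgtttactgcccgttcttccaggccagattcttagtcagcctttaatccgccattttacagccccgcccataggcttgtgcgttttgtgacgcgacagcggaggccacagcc
Eif4h (GRCm38.p6, chr5:134639410-134639659, minus strand): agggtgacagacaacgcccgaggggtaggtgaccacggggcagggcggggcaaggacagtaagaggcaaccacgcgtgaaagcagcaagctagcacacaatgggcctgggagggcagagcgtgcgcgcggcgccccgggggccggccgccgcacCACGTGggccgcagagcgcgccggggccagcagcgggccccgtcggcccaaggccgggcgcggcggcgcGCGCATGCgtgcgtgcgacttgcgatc
Eif4ebp2 (GRCm38.p6, chr10:61452670-61452919, minus strand): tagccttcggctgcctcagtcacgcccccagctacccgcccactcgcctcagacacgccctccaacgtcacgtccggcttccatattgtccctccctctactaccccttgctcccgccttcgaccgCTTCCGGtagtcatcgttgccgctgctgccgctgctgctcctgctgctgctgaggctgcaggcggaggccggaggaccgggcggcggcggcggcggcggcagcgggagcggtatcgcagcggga
Within these stretches, Eif2s1 and Eif4h hold the NRF1 letters, Eif4h the E-box, Eif4ebp2 the ETS letters and Eif2s3x the amino acid response element, while Eif2s2 and Eif2s3y hold none of the 4. Over the full 300-base window around every listed start, 14 of 54 members (25.9%) hold an E-box, beside 8.09% of all genes in the table. The ETS letters are in 17 members (31.5%), beside 9.93% of all genes, and the NRF1 letters in 5 members (9.26%), beside 3.05%. In all 5 motifs were searched, and that of NRF1 was added after these promoters had been read. The amino acid response element was in 2 members (3.70%), Eif2s3x and Eef2k, beside 4.51% of all genes. The fifth was a C at the listed start followed by 4 pyrimidines, as in terminal oligopyrimidine mRNAs. It was in 2 members (3.70%), Eif2s3x and Eif3f, beside 3.01% of all genes. Only the exact listed base was read for it, so genes whose mRNA starts at another base can be missed. Base composition and the number of listed starts per gene were not matched in these shares. No motif was tested against the changes.

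eIF2 carries the initiator tRNA. Eif2s1, the alpha subunit that the kinases phosphorylate, had levels of 4.48 and 4.39 in FBL-knock down cells, against 4.76 and 4.96 in controls. Eif2s2, the beta subunit, had 5.47 and 5.57 in FBL-knock down cells, against 5.81 and 6.23 in controls. Eif2s3x, the X-linked gamma subunit, had 3.29 and 3.24 in FBL-knock down cells, against 3.62 and 3.91 in controls. In these 3 genes both FBL-knock down values lay below both controls. Their log2 changes were -0.43 ± 0.23 for Eif2s1, -0.50 ± 0.24 for Eif2s2 and -0.49 ± 0.23 for Eif2s3x (SE, n = 2 per group), with limma adjusted p of 0.345, 0.292 and 0.276. All 7 probes of these genes were lower in FBL-knock down cells, by between -0.73 and -0.29. Eif2s3y, the Y-linked copy of the gamma subunit gene, had 1.34 and 1.43 in FBL-knock down cells, against 0.83 and 1.46 in controls, and the groups overlapped. Its change was 0.24 ± 0.26 (adjusted p = 0.692). Eif2s3x and Eif2s3y are near-identical copies, and whether their probes read only their own transcript was not tested.

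eIF2B is the exchange factor that reloads eIF2. Eif2b5, its catalytic subunit, had levels of 4.14 and 4.12 in FBL-knock down cells, inside the range of the controls at 4.25 and 3.89 (change 0.06 ± 0.24). Eif2b1, the alpha subunit through which the complex senses phosphorylated eIF2, had 4.71 and 4.49 in FBL-knock down cells, below the controls at 5.07 and 4.83 (change -0.35 ± 0.24, adjusted p = 0.461). The regulatory subunits Eif2b2 (0.10) and Eif2b4 (-0.07) overlapped between groups. Over the 8 eIF2 and eIF2B genes 0 passed, 5 changes were below 0, the median was -0.21, and 4 (50%) had groups that did not overlap, all lower. Of all genes, 51.1% had separate groups in either direction and 30.6% lower.

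The eIF2 kinases each answer to another stress. Eif2ak4 (GCN2), which senses uncharged tRNA, had levels of -1.01 and -1.10 in FBL-knock down cells, against -0.97 and -0.26 in controls. Its change was -0.44 ± 0.27 at this probe and -0.65 at its other probe (adjusted p = 0.425 for the gene). Control 2 stood apart from the other 3 arrays at the first of these probes, and the change was -0.80 without control 1 and -0.084 without control 2. Eif2ak1 (HRI), the kinase regulated by haem, had 0.66 and 0.61 in FBL-knock down cells, below the controls at 0.96 and 0.89 (change -0.30 ± 0.22, adjusted p = 0.532). Eif2ak2 (PKR), which binds double-stranded RNA, had a change of -0.26 ± 0.25 and Eif2ak3 (PERK), the sensor in the endoplasmic reticulum, one of 0.07 ± 0.23, and in both the groups overlapped. The median of the 4 kinases was -0.28, or -0.05 without control 2.

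eIF3 is the large scaffold on the small ribosomal subunit, and 13 of its genes were measured. None passed, 11 had a change below 0, and their median was -0.14. Eif3c, a core subunit, had levels of 7.08 and 7.04 in FBL-knock down cells, against 7.43 and 7.52 in controls, the lowest change of the group (-0.42 ± 0.23, adjusted p = 0.344). Its 4 probes were all lower, by between -0.60 and -0.09. Eif3m had 5.07 and 5.07 in FBL-knock down cells, against 5.41 and 5.47 in controls (-0.37 ± 0.22, adjusted p = 0.412). Eif3d, the subunit that can bind the cap of certain mRNAs, had a change of -0.35 and Eif3e one of -0.31, and in both the groups did not overlap. Without control 1 these changes were -0.066 and -0.53, and without control 2 -0.63 and -0.087. Eif3h (-0.22) was the fifth gene with separate groups (38.5%, all lower, beside 30.6% of all genes). In contrast, the core subunits Eif3a (-0.06 ± 0.26) and Eif3b (-0.11 ± 0.25) and the subunits Eif3f (-0.07), Eif3k (-0.05), Eif3l (-0.14), Eif3g (0.02) and Eif3i (0.06) had FBL-knock down values within or across the range of the controls. Eif3j1, a loosely bound subunit, had -0.14 at the probe that represents it and 0.25 at another of its 3 probes.

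The eIF4 factors bind the cap and unwind the mRNA. Their 11 genes had the lowest median of the 4 main groups, -0.35, with 8 changes below 0 and none past the threshold. The 4 eIF2 subunit genes alone had a lower median, -0.46, and the 4 eIF2B genes one of -0.0043. Eif4a2, one of the helicases, had levels of 3.15 and 3.32 in FBL-knock down cells, against 3.63 and 4.08 in controls. Its change was -0.62 ± 0.25 (adjusted p = 0.189), and -0.86 at its second probe (adjusted p = 0.0601 among 25078 probes), and over the alternatives its adjusted p ran from 0.0320 without control 1, where 21.1% of all genes passed, to 0.965 with the slide as a block. It passed in 1 other, the trended and robust prior (0.0432), and not without control 2 (change -0.40, adjusted p = 0.135). Eif4b, which stimulates that helicase, had 4.20 and 4.12 in FBL-knock down cells, against 4.87 and 4.60 in controls (-0.57 ± 0.23, adjusted p = 0.198), and its 3 probes lay between -0.65 and -0.50. Eif4e, the cap-binding protein, had 3.13 and 3.12 in FBL-knock down cells, against 3.38 and 3.73 in controls (-0.43 ± 0.24, adjusted p = 0.352). In each of these genes both FBL-knock down values were below both controls. That held for 7 of the 11 eIF4 genes (63.6%), beside 30.6% of all genes. In 2 eIF4 genes (18.2%) both values lay above both controls, beside 20.6% of all genes. Eif4e2, a cap-binding relative that represses translation, had 5.71 and 5.61 in FBL-knock down cells, against 6.37 and 5.96 in controls (-0.50 ± 0.24). Its 4 probes were all lower, by between -0.50 and -0.04, and at the probe with -0.04 the groups overlapped. Eif4e3 had a change of -0.51 ± 0.26 with levels of -4.80 and -4.93 in FBL-knock down cells, against -4.08 and -4.63 in controls. Its signal was low, since the lowest level well above background was -6.21 to -5.51 per array. The other probe of Eif4e3 was too dim to be tested, and with normexp background correction the change was -0.21. Eif4a1, the main helicase, had a change of -0.35 ± 0.24 with all 3 probes lower, and Eif4a3, which belongs to the exon junction complex, one of -0.33 ± 0.24.

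Not all eIF4 genes lay lower. The scaffold Eif4g1 had levels of 4.51 and 4.51 in FBL-knock down cells, between the controls at 4.79 and 4.45 (-0.11 ± 0.24, adjusted p = 0.855). Eif4g2, a scaffold relative that does not bind eIF4E, had 3.81 and 4.04 in FBL-knock down cells, also between the controls at 3.59 and 4.10. Eif4g3 had 3.05 and 3.16 in FBL-knock down cells, just above the controls at 2.77 and 3.02 (0.21 ± 0.23). Eif4h, a second cofactor of the helicase, had 6.99 and 6.95 in FBL-knock down cells, above the controls at 6.75 and 6.37 (0.41 ± 0.24, adjusted p = 0.386). The cofactors Eif4b and Eif4h thus had changes of opposite sign, neither of them past the threshold.

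**Figure D2:**
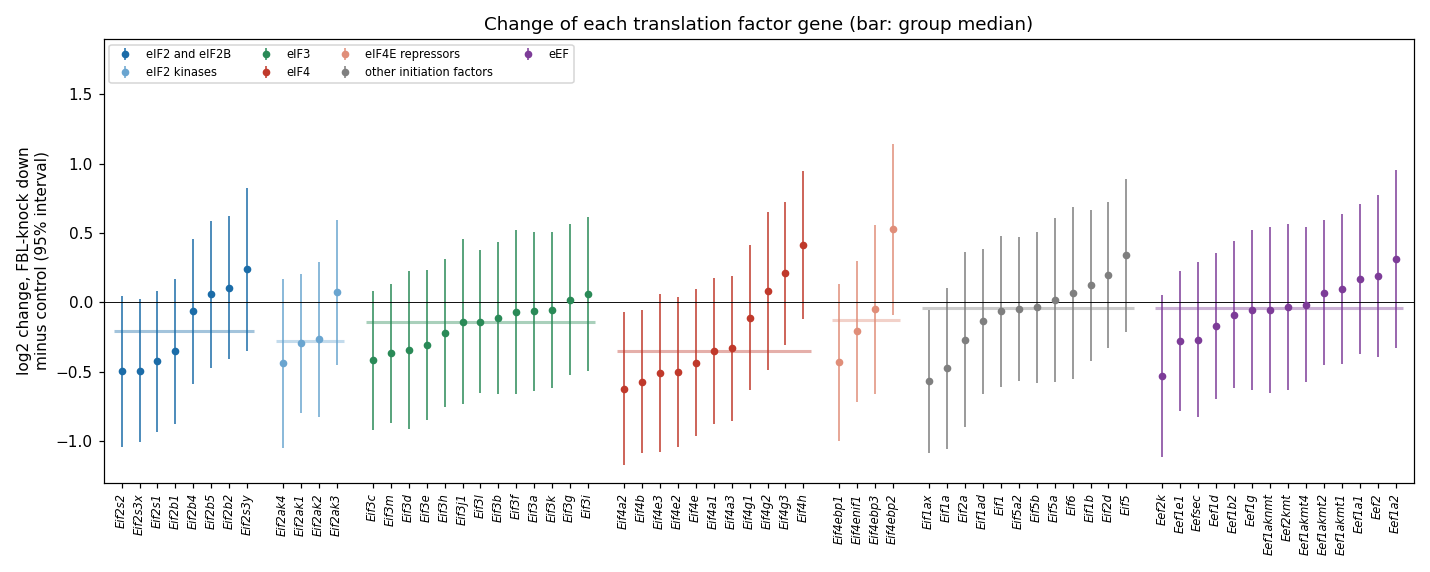
Log2 change of each gene, FBL-knock down minus control, with its 95% interval from the limma fit (n = 2 per group), ordered within each factor group. Horizontal bars are group medians, the lowest of which is that of the eIF4 factors at -0.35.

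The eIF4E repressors had changes on either side of 0, and none passed. Eif4ebp1 had levels of 7.24 and 7.28 in FBL-knock down cells, against 7.97 and 7.42 in controls (-0.43 ± 0.25, adjusted p = 0.396). Eif4ebp2 had 4.44 and 4.38 in FBL-knock down cells, against 4.25 and 3.52 in controls (0.53 ± 0.28, adjusted p = 0.330). At the probes that represent these genes neither pair of groups overlapped, but in both genes the gap between the controls was larger than the change. At the second probe of Eif4ebp1 the groups overlapped, with a change of -0.14. Without control 1 the change of Eif4ebp2 was 0.89 and that of Eif4ebp1 -0.16, and without control 2 they were 0.16 and -0.70. Eif4ebp3 (-0.05) overlapped between groups, and Eif4enif1, the transporter that brings eIF4E into the nucleus, had -0.21 ± 0.23.

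Of the other 12 initiation factors none passed, and their median was -0.04, with a sign that turned under quantile normalization (0.03) and the percentile over bright probes (0.01). Eif1ax, an X-linked gene for eIF1A, the scanning factor, had levels of 5.59 and 5.33 in FBL-knock down cells, against 6.001 and 6.06 in controls (-0.57 ± 0.23, adjusted p = 0.200). Eif1a, its autosomal relative, had 2.62 and 2.73 in FBL-knock down cells, against 2.85 and 3.44 in controls (-0.48 ± 0.26). All 4 probes of this pair were lower, and the FBL-knock down values lay below the controls in both genes. Eif5, which triggers GTP hydrolysis on eIF2, had 4.47 and 4.62 in FBL-knock down cells, against 3.98 and 4.44 in controls (0.34 ± 0.25, adjusted p = 0.508), a change that was 0.11 without control 1 and 0.57 without control 2. Eif2d, which can deliver tRNA without GTP, had a change of 0.20 with its 3 probes all higher. Eif6, which keeps the large subunit from joining too early and also acts in its assembly, had 6.27 and 6.45 in FBL-knock down cells, inside the controls at 6.66 and 5.92 (0.07 ± 0.28). Eif5a, the hypusinated factor, had 7.37 and 7.38 in FBL-knock down cells, inside the controls at 7.69 and 7.03. Eif1 (-0.06), Eif1ad (-0.14), Eif1b (0.12), Eif2a (-0.27), Eif5a2 (-0.05) and Eif5b (-0.03) overlapped between groups as well, at the probes that represent them. Another probe of Eif1ad (-0.35), of Eif5a2 (-0.34) and of Eif5b (-0.40) had both FBL-knock down values below both controls. The 5 probes of Eif5b ran from -0.40 to 0.12.

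The 14 elongation factor genes had a median of -0.04, with 9 changes below 0 and none past the threshold, and that median was 0.00024 with quantile normalization and 0.01 with the percentile over bright probes. Eef1a1, which brings aminoacyl-tRNA to the ribosome, had levels of 7.98 and 8.14 in FBL-knock down cells, against 8.10 and 7.69 in controls (0.17 ± 0.24, adjusted p = 0.773). Eef2, which moves the ribosome along, had 7.25 and 7.37 in FBL-knock down cells, against 7.43 and 6.82 in controls (0.19 ± 0.26, adjusted p = 0.762). The groups overlapped in both, as they did in the subunits of the exchange factor of eEF1A, Eef1b2 (-0.09 ± 0.24), Eef1d (-0.17) and Eef1g (-0.06), and in Eef1a2 (0.31 ± 0.29), the form of muscle and neurons. Another of the 3 probes of Eef1d (-0.29) had both FBL-knock down values below both controls. The signal of Eef1a2 was low, with levels of -4.33 and -4.28 in FBL-knock down cells, against -4.21 and -5.03 in controls. With normexp background correction its change was 0.52. Eef2k, the kinase that inhibits eEF2, had -0.30 and -0.20 in FBL-knock down cells, against 0.59 and -0.02 in controls. Its change was -0.53 ± 0.26 (adjusted p = 0.297), the lowest of the group, and -0.23 without control 1. Eef1e1, a scaffold of the aminoacyl-tRNA synthetase complex, had 4.58 and 4.41 in FBL-knock down cells, against 4.79 and 4.75 in controls (-0.28 ± 0.23), and Eefsec, the factor for selenocysteine, had -0.27 ± 0.25. These were the 3 elongation genes (21.4%) whose groups did not overlap, all lower, where 30.6% of all genes were lower in this way. The methyltransferases Eef1akmt1 (0.10), Eef1akmt2 (0.07), Eef1akmt4 (-0.02), Eef1aknmt (-0.05) and Eef2kmt (-0.03) lay close to 0.

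Set side by side, the medians were -0.21 for eIF2 and eIF2B, -0.14 for eIF3, -0.35 for eIF4 and -0.04 for the elongation factors, beside -0.06 for all genes. Relative to the mean of the controls, the median eIF4 gene stood at -0.37 and -0.44 on the FBL-knock down arrays and at 0.13 and -0.13 on controls 1 and 2. The median elongation factor gene stood at -0.07 and -0.02 on the FBL-knock down arrays and at 0.25 and -0.25 on the controls. For eIF4 both FBL-knock down arrays thus lay below both controls, and for the elongation factors they lay between them. For eIF3 they stood at -0.18 and -0.12, against 0.19 and -0.19 on the controls, again between them. For eIF2 and eIF2B they stood at -0.16 and -0.25, against 0.01 and -0.01. These control medians pool gaps of opposite direction, and the median control gap of the single genes was 0.31 in size. Split after the values were seen, the 4 eIF2 subunit genes (median change -0.46) stood at -0.42 and -0.46, against -0.18 and 0.18. The 4 eIF2B genes (median change -0.0043) stood at -0.0055 and -0.0031, between the controls at 0.15 and -0.15. The difference between these groups of genes was not tested. The medians of eIF2 and eIF2B, the kinases, eIF3 and eIF4 were below 0 under each of the 10 alternatives that can move them. The median of all genes was below 0 there too, except without control 1 (0.0045). These alternatives reuse the same 4 arrays, so they do not stand in for further samples. Without control 1 and without control 2 the eIF4 median was -0.24 and -0.40, that of eIF3 -0.02 and -0.29, that of eIF2 and eIF2B -0.15 and -0.26, and that of the elongation factors 0.23 and -0.28.

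**Figure D3:**
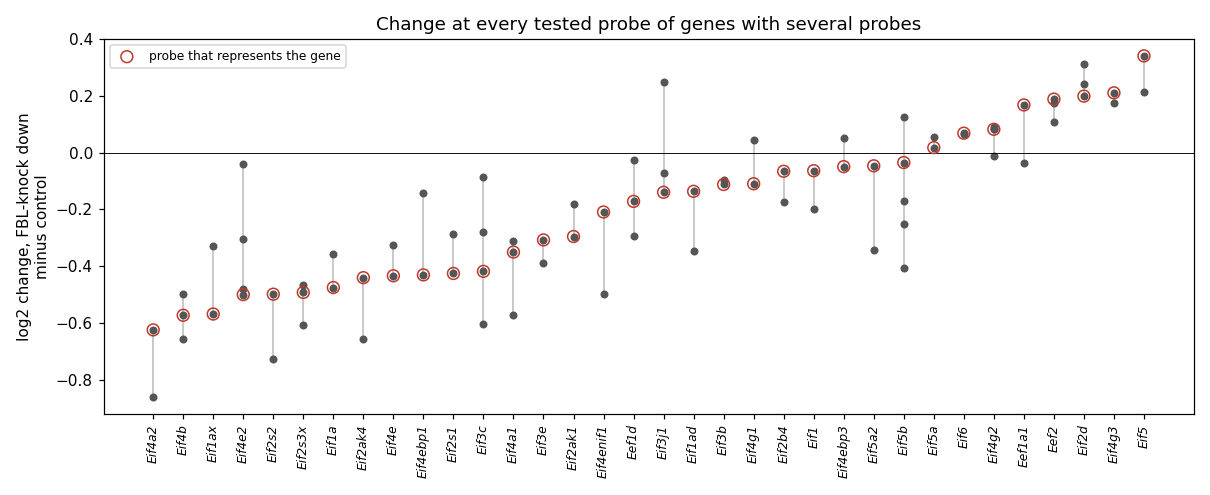
Log2 change at every tested probe, FBL-knock down minus control, for the 34 genes with several tested probes, ordered by the probe that represents the gene (open circles). All probes of 22 genes lie below 0 and all probes of 6 above it, while 6 genes have probes on both sides.

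Several probes per gene gave a check within the arrays. Of the 116 tested probes, 82 were lower and 34 higher in FBL-knock down cells, and none passed when each probe was tested for itself, where 6.09% of all probes did. Of 34 genes with several probes, 22 were lower at all of them, 6 higher at all of them and 6 mixed. Probes of a gene share the RNA and the array, so they do not stand in for further samples.

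**Figure D4:**
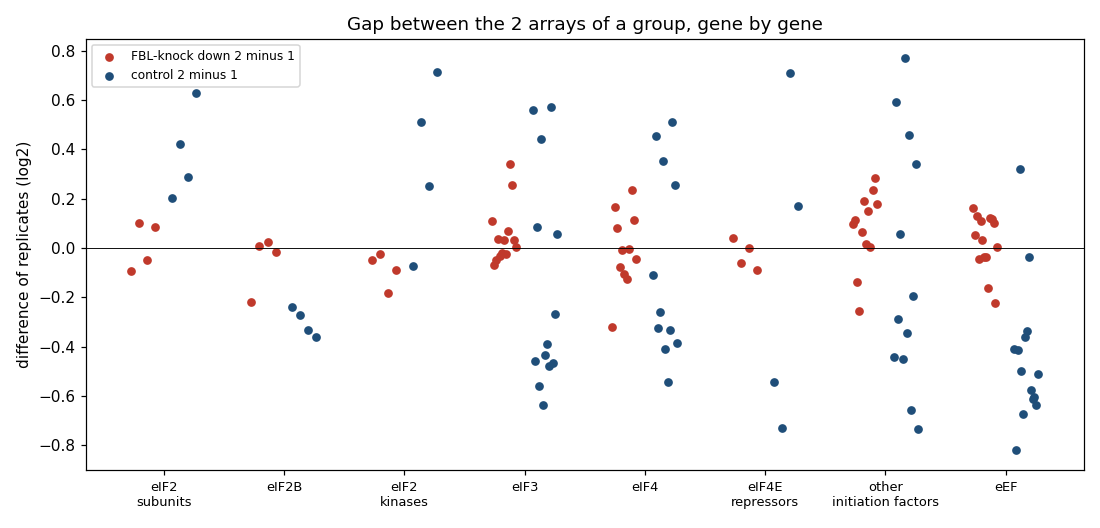
Difference between the 2 arrays of a group for each gene, FBL-knock down 2 minus 1 on the left and control 2 minus 1 on the right of each factor group. The control gaps are wider than the FBL-knock down gaps for 62 of 66 genes, beside 15098 of all 19338 genes tested. The control gaps run upwards for the 4 eIF2 subunit genes and downwards for the 4 eIF2B genes.

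The controls lay further apart than the FBL-knock down arrays did. The median gap between the arrays was 0.08 for the FBL-knock down pair and 0.43 for the control pair, and over all genes it was 0.12 and 0.39. The gap was wider in the controls for 62 of the 66 members, beside 15098 of all 19338 genes. Control 2 was above control 1 in 24 members (36.4%), beside 37.4% of all genes. Without control 1, 9 members passed (21.1% of all genes did), namely Eif1a, Eif2ak4, Eif2s2, Eif2s3x, Eif4a2 and Eif4e lower and Eef1a2, Eif4ebp2 and Eif4h higher. Without control 2, 5 passed (12.4% of all genes did), namely Eef2k, Eif4b, Eif4e2, Eif4e3 and Eif4ebp1, all lower. No member passed in both, and each of these fits took its spread from the FBL-knock down pair alone. Against either control on its own, 28 members had a change below 0 and 5 a change above 0, while the other 33 lay on one side of 0 against control 1 and on the other against control 2. The 5 were Eif2d, Eif4ebp2, Eif4g3, Eif4h and Eif5. Leaving out control 1 or control 2 moved the change of 57 of the 66 members by over 1.5 times or turned its sign. The counts of 28, 5, 33 and 57 were not made over all genes, so whether they are unusual was not tested.

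Translation genes outside the prefixes gave 2 calls. Of 47 listed genes 44 were measured, and 2 fell and 0 rose (4.55%, beside 6.51% of all genes), with 30 changes below 0 and a median of -0.14. Ppp1r15b (CReP), the subunit that directs a phosphatase to eIF2 in unstressed cells, had levels of -1.31 and -1.29 in FBL-knock down cells, against 0.15 and -0.17 in controls, and fell by 1.28 on the log2 scale (SE 0.24, adjusted p = 0.00920). Mcts2, a retrogene copy of the recycling factor gene Mcts1, had 2.61 and 2.48 in FBL-knock down cells, against 3.59 and 3.42 in controls, and fell by 0.96 on the log2 scale (SE 0.23, adjusted p = 0.0337), while Mcts1 had -0.01. Copies this alike may share signal, so the call of Mcts2 is uncertain. Both calls ended within slide 1 (adjusted p = 0.121 for Ppp1r15b and 0.624 for Mcts2) and without FBL-knock down 1 (0.103 and 0.310), fits that gave every gene the same variance, and with no filter on dim probes (0.232 and 0.350). The changes within slide 1 were -1.29 for Ppp1r15b and -0.89 for Mcts2. Ppp1r15a (GADD34), the stress-induced partner of the same phosphatase, had 0.68 and 0.80 in FBL-knock down cells, against 0.76 and 0.26 in controls (0.23 ± 0.25), and the groups overlapped.

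Of the eIF4E kinases, Mknk1 had a change of -0.01 at the probe that represents it and Mknk2 one of 0.10. The 3 probes of Mknk1 were all lower, by between -0.55 and -0.01. Pabpc1, the poly(A)-binding protein that joins eIF4G, had 0.25 ± 0.24, and the ATPase Abce1, which splits ribosomes, had -0.19 ± 0.27. The termination factors Etf1 (-0.29 ± 0.28) and Gspt1 (-0.45 ± 0.24, adjusted p = 0.327) did not pass, and in Gspt1 the FBL-knock down values of 3.03 and 3.06 lay below the controls at 3.33 and 3.66. Dhps, the first enzyme of hypusine synthesis on eIF5A, had 3.61 and 3.64 in FBL-knock down cells, above the controls at 3.50 and 3.03 (0.36 ± 0.25, adjusted p = 0.476). Pdcd4, an inhibitor of the eIF4A helicase, had no probe named here.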

How the data were processed

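Messenger RNA of 4 samples was measured on 1-colour Agilent arrays, 1 per sample. Per the file headers, each deposited spot intensity came from Agilent Feature Extraction 10.7.3.1 after background subtraction and spatial detrending, without scaling between arrays. Set against the scanner files, the authors' deposited value table held log2 values in the direction of the signal, shifted by 1 constant per array, with probes not centred (99.7% to 99.8% of entries within 0.01, member probes within 0.0066). Its column medians were -3.94 and -3.91 for the FBL-knock down samples and -3.85 and -3.98 for the controls. The program behind that table was not stated in the sources used here.

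The processed intensity was taken to log2 and set relative to the 75th percentile of non-control probes. Outlier-flagged spots (96 to 138 per array) were left out, and no spot was saturated. A probe was tested if both arrays of either group had it well above background (25078 probes). RefSeq for GRCm38.p6 named 24375 of 41174 probes by accession. A gene was represented by its tested probe with the highest mean level. limma 3.58.1 (lmFit, eBayes, two-sided, R 4.3.3) compared the groups, and p-values were adjusted by Benjamini-Hochberg across 19338 genes. Intervals are 95% intervals of that fit, and the small number of arrays limits their precision. The fit was tested on simulated data.

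Members, lists and motifs were chosen with earlier results of these data known. The percentile was first taken over spots, with every spot of a probe required to be well above background. Both choices were changed after the counts had been seen, to match the deposited table, and the first form is kept as an alternative. Named in full were genes fixed by name, the highest and lowest change of each factor group, and any past the threshold. A further 7 (Eif1a, Eif3d, Eif3m, Eif4b, Eif4e2, Eif4e3 and Eif4g3) were described after their values were seen. Same-numbered samples did not deviate together (correlation of replicate differences across genes 0.0029), so no pairing was used. Alternatives were the background correction, scaling, filter, probe of a gene, value table, variance prior, slide, replicate block and leaving out each array.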

Additional observations from a re-analysis of the deposited data

How the results depend on the processing

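The number of translation factor genes past the threshold was 0 in limma under every alternative that kept all 4 arrays except the trended and robust prior, where 1 fell (Eif4a2). Leaving out 1 array in turn gave 0 to 3 higher and 0 to 6 lower, with calls without control 1 (3 higher, 6 lower) and without control 2 (5 lower). The median of all members was -0.10, and -0.27 to -0.038 without 1 array. Without 1 array the median of eIF2 and eIF2B ran from -0.26 to -0.15, of the eIF2 kinases from -0.39 to -0.046, of the eIF4E repressors from -0.23 to 0.019 and of the elongation factors from -0.28 to 0.23. The median of eIF2 and eIF2B was -0.12 with quantile normalization, -0.15 with the percentile over bright probes and -0.16 with the slide as a block. The median change of all genes was -0.06, and 0.0045 without control 1, -0.13 without control 2 and -0.00083 under normexp.

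Over all genes, 1041 rose and 834 fell with a trended prior, 1209 rose and 1047 fell with a trended and robust prior, and 381 rose and 194 fell with the slide as a block, where 0 other translation genes passed (1 at an unadjusted p under 0.05). Without 1 array, 381 to 2350 rose, 194 to 1728 fell, and 0 to 7 other translation genes passed. With no filter on dim probes limma called 0 genes higher, 0 lower and 0 other translation genes (2959 genes and 2 other translation genes had an unadjusted p under 0.05), and Fbl had a change of -2.42 with an adjusted p of 0.106. The replicate block gave 959 rising and 787 falling genes and 0 members. With the scaling and filter used first, 721 genes rose, 511 fell and 0 members passed. The causes of these shifts were not tested, apart from the fewer arrays used.

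Of 42 single genes, 14 had another sign at least once, in 18 of 420 values over the 10 alternatives with changes of their own. Of the other 6, 5 alter only the spread or the set tested, and the slide block repeats the changes without FBL-knock down 2. Without 1 array their changes ran from -0.037 to 0.37 for Eef1a1, -0.096 to 0.72 for Eef1a2, -0.27 to 0.091 for Eef1b2, -0.12 to 0.49 for Eef2, -0.053 to 0.20 for Eif2ak3, -0.12 to 0.24 for Eif2b5, -0.074 to 0.55 for Eif2s3y, -0.34 to 0.22 for Eif3a, -0.34 to 0.12 for Eif3b, -0.18 to 0.30 for Eif3i, -0.28 to 0.057 for Eif4g1, -0.17 to 0.34 for Eif4g2, -0.31 to 0.35 for Eif5a and -0.30 to 0.44 for Eif6. With the slide as a block Eif4g2 had -0.035 and Eif6 -0.021, and under normexp Eif2b5 had -0.089. The planned normexp on the mean spot signal was not run, since the files used hold the median signal, which took its place by a choice made after seeing the data.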

Other observations

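Control 2 was above control 1 for all 4 eIF2 subunit genes, by 0.20 (Eif2s1) to 0.63 (Eif2s3y), and below it for all 4 eIF2B genes, by -0.24 (Eif2b1) to -0.36 (Eif2b5). It was below control 1 for all 6 genes of eEF1 and eEF2 subunits, with a median of -0.49, and for 13 of the 14 elongation genes, where it was below for 62.6% of all genes. Within eIF3, control 2 was above for Eif3a, Eif3c, Eif3e, Eif3j1 and Eif3m and below for the other 8. These subsets were picked after their values were seen and were not tested, both controls lay on the same slide, and the origin of the gap was not tested.

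The FBL-knock down arrays lay on different slides and yet stood closer together, with a largest gap of 0.34 (Eif3j1) among the members. The largest control gap was 0.82 (Eef1a2, whose signal was low).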
